A study of Mus musculus with 12 samples.

Results

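The enzymes that make glycerol 3-phosphate and build triglyceride on it were described in inguinal and epididymal white adipose tissue (iWAT and eWAT) of mice fed a HFD. The set holds 8 genes, found by symbol among the 27179 genes of each deposited table: Gk, Pck1, Gpd1, Gpam, Agpat2, Lpin1, Dgat1 and Dgat2. The study sequenced polyadenylated RNA of 12 samples in 4 groups of 3. These were iWAT of mice given the GIP analog (D-Ala2)GIP[Lys37PAL], iWAT of mice given saline, eWAT of mice given the analog and eWAT of mice given saline. All were C57/BL6 control mice that ate the HFD for 2 weeks, and the labels name no mutant allele. The analog, a stabilized agonist of the GIP receptor, was injected under the skin 5 times at 2 pmol/kg on the HFD. It followed 3 injections over 10 days on chow, of which the last was the analog and the earlier ones saline. Saline mice received saline throughout.

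The values per sample could not be tied to the analog or to saline, since the names of their columns match no sample label. The response to the analog was therefore not analysed here, and no treatment is compared below. What is described is the authors' average log2 CPM (counts scaled to the size of the library) of each gene, 1 mean per gene for the iWAT table and 1 for the eWAT table. Each table is named for both treatments, so these means should be read as levels of the depot over both. The tissue of a table is the one in its name. The means carry no error and no n per gene, and the tables were normalized separately. With the values per sample set aside, sample depth is unknown here, the spread between mice was not analysed and no difference between the tables was tested.

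Triglyceride is built on glycerol 3-phosphate, which adipocytes make mostly by reducing dihydroxyacetone phosphate and, to a small extent, by phosphorylating free glycerol. Dihydroxyacetone phosphate comes from glucose through glycolysis, or from pyruvate and its precursors through glyceroneogenesis, which white fat uses to re-esterify fatty acids when glucose is scarce. Acyl groups are then added in turn, a phosphate is removed in between, and the last acyl group turns diacylglycerol into triglyceride. The GIP receptor is coupled to cAMP, the messenger behind the cAMP response element of the Pck1 promoter.

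Promoter letters are shown for 3 of the genes, Pck1 and Gpam for the core of that element, known from the rat Pck1 gene, and Gk for an E-box. Windows with neither match are not printed. RefSeq windows of GRCm38.p6 were found for 5 of the 8 genes, Gk, Pck1, Gpam, Agpat2 and Lpin1, with 6 start sites in all. Each window printed is the 250 bases before the start, 5′ to 3′ on the strand of the gene. Capitals mark matches to TGACGT, the core of a cAMP response element, read on the opposite strand in Pck1 and Gpam as ACGTCA, and to the E-box CACGTG in Gk.
Pck1, chr2:173152823-173153072, plus strand: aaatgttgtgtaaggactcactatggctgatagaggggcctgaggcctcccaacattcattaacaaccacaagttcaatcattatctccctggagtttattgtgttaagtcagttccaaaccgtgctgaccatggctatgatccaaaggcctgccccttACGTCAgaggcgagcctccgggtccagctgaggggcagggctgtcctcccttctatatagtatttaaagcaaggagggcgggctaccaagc
Gk, chrX:85776820-85777069, minus strand: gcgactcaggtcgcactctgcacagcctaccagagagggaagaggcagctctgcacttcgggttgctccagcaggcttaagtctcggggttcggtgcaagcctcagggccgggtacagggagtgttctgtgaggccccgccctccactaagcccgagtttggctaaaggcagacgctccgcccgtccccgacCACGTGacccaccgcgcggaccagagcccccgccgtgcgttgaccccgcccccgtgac
Gpam, inner start, chr19:55099478-55099727, minus strand: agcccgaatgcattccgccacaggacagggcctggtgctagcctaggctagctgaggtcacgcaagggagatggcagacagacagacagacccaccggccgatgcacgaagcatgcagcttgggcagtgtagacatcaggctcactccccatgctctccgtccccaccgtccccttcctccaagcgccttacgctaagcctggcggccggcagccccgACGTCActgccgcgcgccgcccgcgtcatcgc

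This core lay 91 to 86 bases before the start of Pck1 and 32 to 27 bases before the inner start of Gpam. It matched in 2 of the 6 windows, and in 6.47% of all 32851 RefSeq windows of the same length, both strands searched. Bases just after the inner start of Gpam were found in no GENCODE transcript of the gene, while those of the other windows were found. The E-box lay 58 to 53 bases before the start of Gk and was the only E-box in the 6 windows, against 6.02% of all windows. The nuclear receptor element AGGTCA matched in the windows of Lpin1 and of the inner start of Gpam, against 14.0% of all windows. The Lpin1 window, chr12:16610967-16611216 on the minus strand, also lies inside its gene. The direct repeat of AGGTCA with 1 free base between, a form bound by PPAR receptors, and the full element TGACGTCA matched in none of the 6, against 0.0335% and 1.55% of all windows. These are matches of letters only, and no binding was measured.

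All 8 genes had an average of at least 1 CPM in both tables, and they differed widely in level. Levels of different genes were compared per kb of exon, with the union of annotated exons as the length of a gene. The highest per kb was Gpd1 in the iWAT table and Dgat2 in the eWAT table, and Gk was the lowest in both. Between highest and lowest lay 204-fold in the iWAT table and 836-fold in the eWAT table, or 130-fold and 639-fold with the longest transcript as the length. Both tables had Pck1, Gpd1 and Dgat2 ahead, then Agpat2, Dgat1, Lpin1, Gpam and Gk in that order. Together the 8 genes took 1.28% of counts in the iWAT table and 1.10% in the eWAT table, as read from their average CPM.

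**Figure D1:**
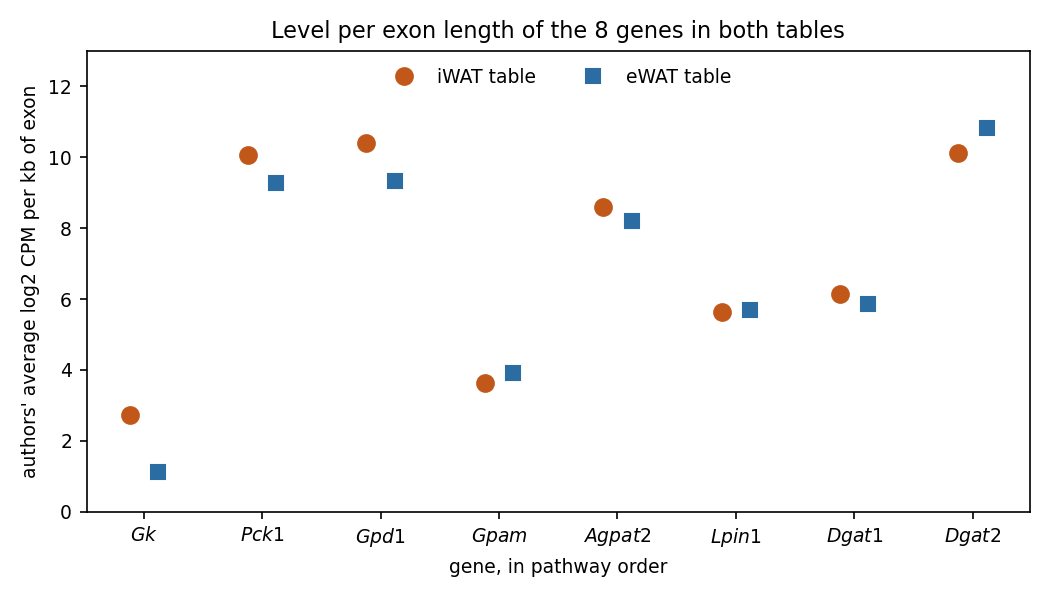
Authors' average log2 CPM per kb of exon (vertical axis) of the 8 genes in pathway order, with iWAT as circles and eWAT as squares, 1 mean per gene and table and no error. Gpd1, Pck1 and Dgat2 stand at 9.26 to 10.83 in both tables and Gk at 2.72 in iWAT and 1.12 in eWAT.

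Pck1 encodes cytosolic PEP carboxykinase, the enzyme that commits oxaloacetate to glyceroneogenesis (gene 18534, chr2:173153073-173159274 of GRCm38). Its average log2 CPM was 11.85 in the iWAT table and 11.04 in the eWAT table, 1.75-fold higher in iWAT. Per kb it stood above 99.7% of the 12300 expressed genes with an exon length in the iWAT table and above 99.5% in the eWAT table. Pck2, the mitochondrial isoform, was far lower, with Pck1 at 604 times its level per kb in the iWAT table and 263 times in the eWAT table.

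Gpd1 encodes the cytosolic dehydrogenase that reduces dihydroxyacetone phosphate to glycerol 3-phosphate (gene 14555, chr15:99717587-99725014). Its average log2 CPM was 11.96 in the iWAT table and 10.90 in the eWAT table, 2.08-fold higher in iWAT. It made up 97.1% of the summed level per kb of Gpd1, its homolog Gpd1l and the mitochondrial Gpd2 in the iWAT table and 96.6% in the eWAT table. Gpd2, which oxidizes glycerol 3-phosphate at the inner membrane, had 7.59 in the iWAT table and 6.32 in the eWAT table on the scale of average log2 CPM, so both arms of the glycerophosphate shuttle were higher in iWAT. Their ratio per kb changed little, with Gpd1 at 45.9 times Gpd2 in the iWAT table and 53.0 times in the eWAT table. Of the 2961 exon bases of Gpd1, 384 overlap Gm16537 on the opposite strand, and whether reads were counted by strand is not given in the sources used here.

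Gk encodes glycerol kinase, which phosphorylates free glycerol and is scarce in white but not in brown adipocytes (gene 14933, chrX:85701937-85776819). Its average log2 CPM was 5.68 in the iWAT table and 4.07 in the eWAT table, a difference of 1.60 and the largest of the 8 genes, 3.04-fold. Per kb it stood above 60.2% of expressed genes in the iWAT table but above 33.5% in the eWAT table. The related Gk5 had 1.62 in the iWAT table and 1.69 in the eWAT table. Gk thus made up 94.8% of the 2 genes' level per kb in the iWAT table and 85.1% in the eWAT table. Its intronless relatives Gk2 and Gykl1, which could share reads with it, stood at −1.54 and −2.70 in the iWAT table and at −2.11 and −2.33 in the eWAT table, near the lowest values of −2.82 and −2.33. Aqp7, the channel through which glycerol leaves and enters adipocytes, exceeded Gk per kb 22.7-fold in the iWAT table and 47.5-fold in the eWAT table, or 14.2-fold and 29.8-fold with the longest transcript as the length.

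Gpam encodes the mitochondrial acyltransferase GPAT1, which adds the first acyl group to glycerol 3-phosphate (gene 14732, chr19:55067635-55127319). Its average log2 CPM was 6.37 in the iWAT table and 6.65 in the eWAT table. Unlike the other members with relatives, apart from Dgat1, it was a minor part of its family. Gpam made up 10.0% of the level per kb of the 3 GPAT genes in the iWAT table and 12.6% in the eWAT table. Gpat3, an isoform of the endoplasmic reticulum, made up 53.1% in the iWAT table and 60.4% in the eWAT table. Gpat4, also of the endoplasmic reticulum, made up 36.9% in the iWAT table and 27.0% in the eWAT table.

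Agpat2 encodes the acyltransferase that adds the second acyl group, and its loss causes lipodystrophy in humans and mice (gene 67512, chr2:26593057-26604417). Its average log2 CPM was 9.69 in the iWAT table and 9.28 in the eWAT table. It made up 91.9% of the level per kb of the 5 Agpat genes in the iWAT table and 90.3% in the eWAT table. Lpin1 encodes lipin 1, the phosphatidate phosphatase missing in fld mice (gene 14245, chr12:16535669-16653903). Its average log2 CPM was almost equal, 8.92 in the iWAT table and 8.97 in the eWAT table. It made up 92.2% of the 3 lipins per kb in the iWAT table and 92.9% in the eWAT table.

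Dgat1 and Dgat2 encode unrelated enzymes that add the last acyl group to diacylglycerol. Dgat2 (gene 67800, chr7:99153663-99182713) had an average log2 CPM of 11.75 in the iWAT table and 12.45 in the eWAT table, 1.62-fold higher in eWAT. Dgat1 (gene 13350, chr15:76502012-76512021) had 7.77 in the iWAT table and 7.47 in the eWAT table. The members of this pair thus lay on opposite sides of 0 in the difference between depots. Per kb, Dgat2 exceeded Dgat1 15.7-fold in the iWAT table and 31.3-fold in the eWAT table, a ratio that scaling between the tables cannot alter.

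**Figure D2:**
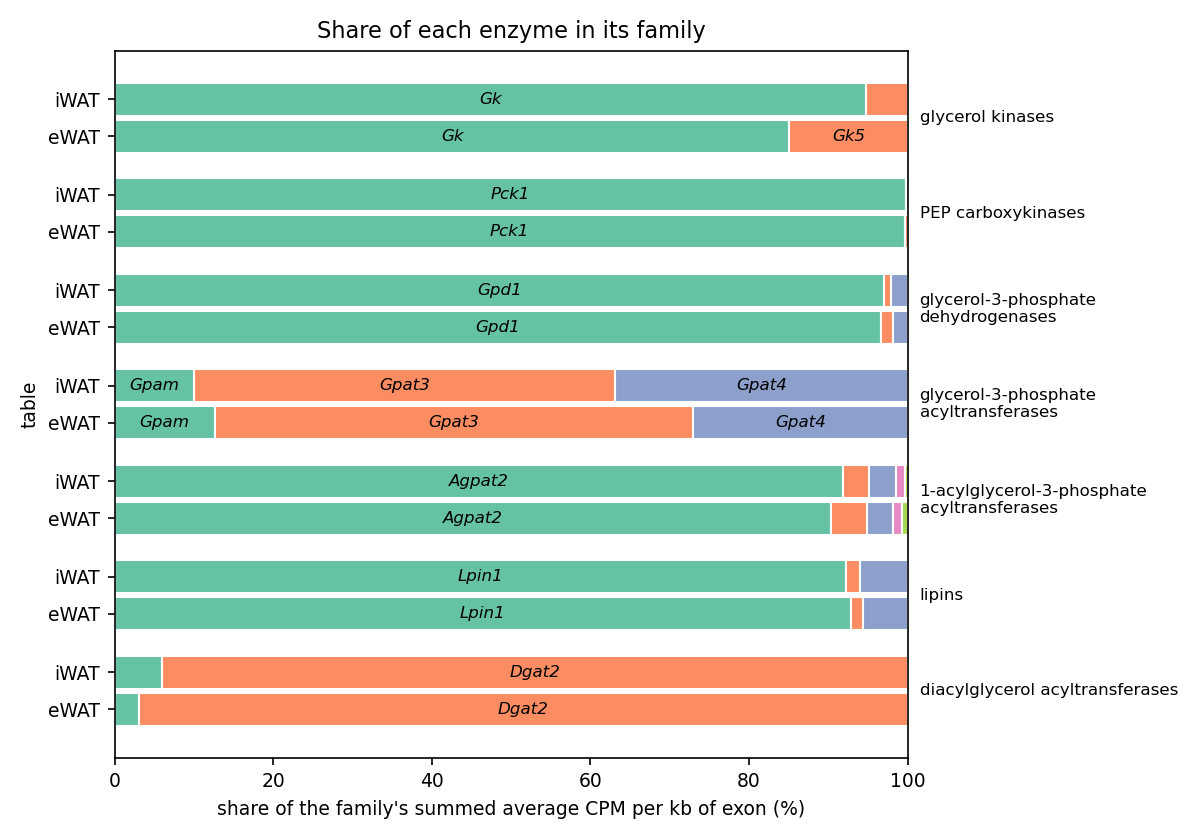
Share (%) of each gene in the summed average CPM per kb of exon of its family, for the iWAT and the eWAT table, 7 families. Segments too thin for a name are, in order, Gk5 (in iWAT only), Pck2, Gpd1l and Gpd2, then Agpat1, Agpat3, Agpat4 and Agpat5, then Lpin2 and Lpin3, and Dgat1 at the left of the last pair. Gpam holds 10.0% in iWAT and 12.6% in eWAT, whereas Pck1, Gpd1, Agpat2 and Lpin1 hold over 90% in both tables.

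Between depots, 5 of the 8 genes were higher in the iWAT table and 3 in the eWAT table, where 51.3% of all expressed genes were higher in the iWAT table. The difference in average log2 CPM, iWAT minus eWAT, was 1.60 for Gk, 1.06 for Gpd1 and 0.81 for Pck1. Agpat2 and Dgat1 had 0.40 and 0.30, while Lpin1, Gpam and Dgat2 had −0.05, −0.28 and −0.70. Of the 8 genes, 2 were more than 2-fold higher in the iWAT table, Gk and Gpd1, where 4.18% of the 13197 genes expressed in both tables passed that limit. None was more than 2-fold lower, against 3.05% of all genes. Their median difference was 0.35, beside 0.01 for all genes expressed, whose 5th and 95th percentiles were −0.80 and 0.89. Gk lay above 98.2% of those genes, Gpd1 above 96.3% and Pck1 above 94.2%, whereas Dgat2 lay above only 6.66%.

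Scaling the tables to 7 adipocyte markers, a choice made after seeing the data, adds 0.26 to every difference. The markers disagreed among themselves, from −1.02 for Retn to 0.38 for Plin1, with a median of −0.26. With this scaling Gk and Pck1 had 1.86 and 1.07, past 2-fold along with Gpd1, and Agpat2 and Dgat1 had 0.66 and 0.55. Dgat2 had −0.44, Gpam had −0.02 and Lpin1 turned to 0.21. The shift raised all genes alike, so that 6.65% of expressed genes were then more than 2-fold higher in the iWAT table, against 4.18% before. With the shift, 74.6% of expressed genes were above 0. Ratios within a table, where no scaling enters, follow from the same differences and are no separate result. They set Gpd1 and Pck1 against Dgat2, the member furthest toward eWAT, while Dgat1, of the same step, was higher in iWAT. Per kb, Gpd1 was at 1.20 times Dgat2 in the iWAT table and at 0.356 times in the eWAT table, and Pck1 was at 0.959 times Dgat2 in the iWAT table and at 0.338 times in the eWAT table. With the longest transcript as the length, Gpd1 was at 0.912 times Dgat2 in the iWAT table and at 0.270 times in the eWAT table, so Dgat2 led in iWAT with that length. In the eWAT table Pck1 then came before Gpd1. The order of the leading genes thus depends on the length in both tables.

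**Figure D3:**
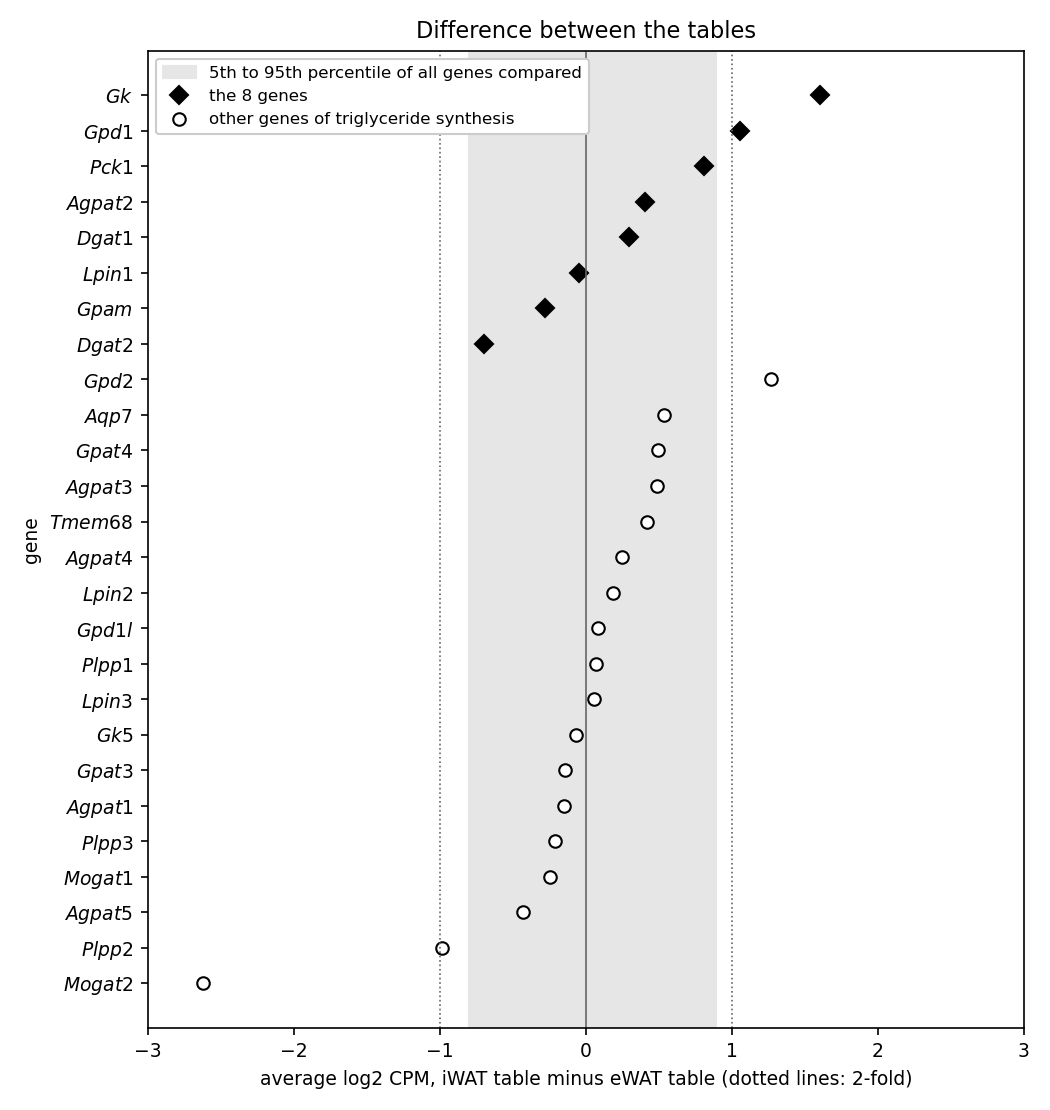
Difference in the authors' average log2 CPM, iWAT table minus eWAT table (horizontal axis), of the 8 genes (filled) and 18 other genes of triglyceride synthesis (open), with no error. The band spans −0.80 to 0.89, the 5th to 95th percentile of 13197 genes, and Gk, Gpd1, Gpd2, Plpp2 and Mogat2 lie outside it.

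The other genes of the pathway divided almost evenly between the depots as the tables were scaled by the authors. All 18 were expressed in both tables, 10 with a difference above 0 and 8 below, with a median of 0.06. Scaled to the adipocyte markers, 15 were above 0 and 3 below, with a median of 0.32, where 74.6% of all expressed genes were above 0, against 51.3% before. Gpd2 was the only one of them more than 2-fold higher in the iWAT table, by 1.27 on the log2 scale. Mogat2, a monoacylglycerol acyltransferase known from the intestine, was the only one more than 2-fold lower, with an average log2 CPM of 2.52 in the iWAT table and 5.14 in the eWAT table. Mogat1, of the same family, had 5.30 in the iWAT table and 5.55 in the eWAT table. Plpp2, a lipid phosphate phosphatase, had −0.99.

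The genes around Pck1 differed in both directions. Of 10 genes of glyceroneogenesis and of the carriers around it, none passed 2-fold in either direction, with 5 above 0, 5 below and a median of −0.0033. Scaled to the adipocyte markers, 7 of the 10 were above 0, near the 74.6% of all expressed genes above 0 with that scaling, against 51.3% before. Pcx, pyruvate carboxylase, had an average log2 CPM of 9.88 in the iWAT table and 10.20 in the eWAT table. Mdh2, mitochondrial malate dehydrogenase, had 10.02 in the iWAT table and 9.45 in the eWAT table. The aminotransferases Got1 and Got2 were at 3.24 and 4.17 in the iWAT table and at 2.61 and 4.59 in the eWAT table. Of the steps from pyruvate to glycerol 3-phosphate that were listed, Pck1 and Gpd1 therefore had the widest differences.

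Among 10 genes of lipid droplet assembly and transcriptional regulators, 9 were expressed in both tables and 2 were more than 2-fold higher in the iWAT table. These were Ppara, a nuclear receptor of fatty acids, with an average of 48.6 CPM in the iWAT table and 11.9 CPM in the eWAT table, and its coactivator Ppargc1a, with 21.5 CPM in the iWAT table and 7.48 CPM in the eWAT table. Pparg, the adipocyte regulator known to act on Pck1 and Gk, stood at an average log2 CPM of 8.28 in the iWAT table and 8.24 in the eWAT table. Srebf1, a regulator of lipid synthesis, had 8.16 in the iWAT table and 7.93 in the eWAT table. Cebpa, a regulator of adipocyte differentiation, had 6.73 in the iWAT table and 7.21 in the eWAT table.

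Markers of several cell types also differed in level between the tables. All 7 markers of thermogenic adipocytes were higher in the iWAT table, by a median of 4.06 on the log2 scale, and their average CPM summed to 1419 in the iWAT table and 46.3 in the eWAT table. The 5 of them expressed in both tables had a median of 3.31, and 1 of the 7, Ppargc1a, is also counted above among the regulators. Ucp1, which defines thermogenic adipocytes, had an average log2 CPM of 9.15 in the iWAT table and −1.39 in the eWAT table, near the lowest value there. The 5 B cell and 5 T cell markers were also all higher in the iWAT table, by medians of 4.91 and 2.91, with sums of 184 and 87.1 CPM in the iWAT table and 7.21 and 13.6 CPM in the eWAT table. The lymph node stroma list had 4 of 5 genes higher in the iWAT table, with sums of 52.3 CPM in iWAT and 21.8 CPM in eWAT. Of these 4, Ccl19, Glycam1 and Madcam1 were below 0 on the log2 CPM scale in the eWAT table, so the sizes of their differences are uncertain. The 2 genes expressed in both tables went opposite ways, with differences of 1.42 for Ccl21a and −2.14 for Chst4. The 7 adipocyte markers summed to 27656 CPM in the iWAT table and 34107 CPM in the eWAT table, with 6 of them lower in the iWAT table, and Adipoq stood at 11.58 in the iWAT table and 11.84 in the eWAT table. Macrophage markers differed by a median of 0.62 and endothelial markers by −0.02. The epithelial list had 4 of 5 genes lower in the iWAT table, by a median of −3.63 over the list, with sums of 1.94 CPM in iWAT and 16.6 CPM in eWAT. Its keratins Krt14, Krt8, Krt18 and Krt5 had differences of −4.56, −4.38, −3.63 and −0.17. Epcam went the other way, with an average log2 CPM of −0.20 in the iWAT table and −1.52 in the eWAT table. All 5 were below 0 on that scale in the iWAT table, so none counts as expressed and the sizes of these differences are uncertain. Krt14 stood at −2.60 there, near the lowest value of −2.82. The 5 epididymal genes were below 1 CPM in both. RNA without a poly(A) tail or from mitochondria was lower in the iWAT table for 4 of 4 genes, with sums of 22349 CPM in iWAT and 37527 CPM in eWAT. Rn45s, the ribosomal precursor, differed by −1.82, Rn7sk by −1.50, mt-Rnr1 by −0.64 and mt-Rnr2 by −0.52. The part of these cells and RNAs in the differences of Gk, Gpd1 and Pck1 was not tested, and more cells of a type cannot be told apart from more RNA per cell.

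**Figure D4:**
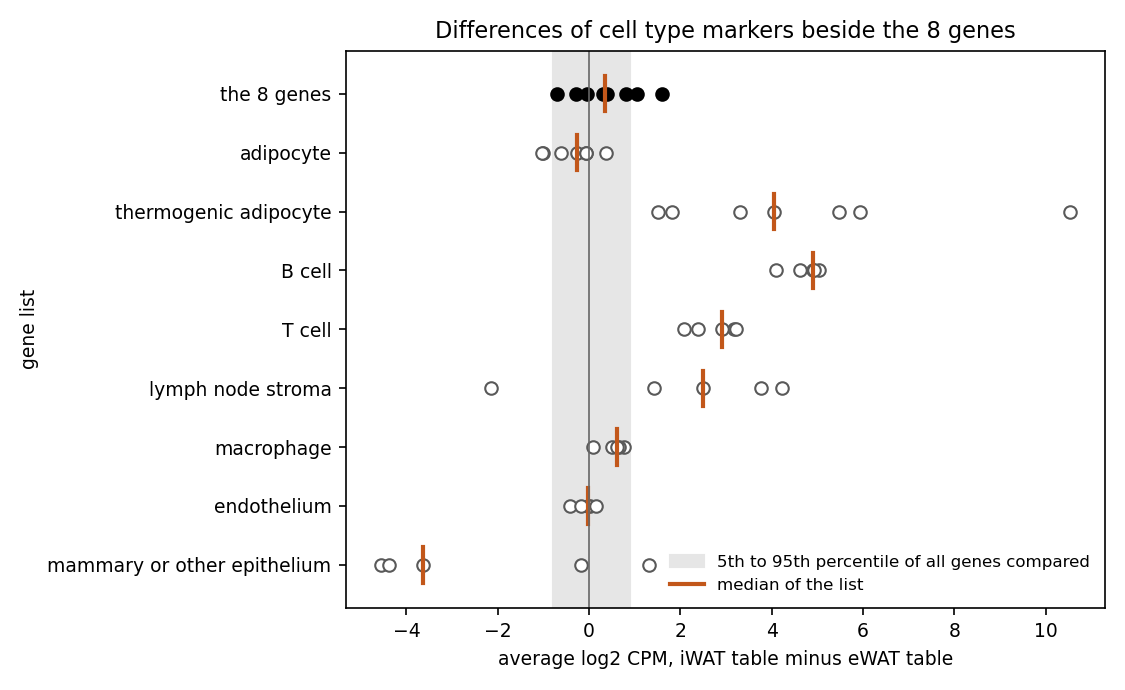
Difference in the authors' average log2 CPM, iWAT table minus eWAT table (horizontal axis), for each gene of 8 marker lists and for the 8 genes of triglyceride synthesis, with the median of each list as a bar and the 5th to 95th percentile of 13197 genes as a band. The medians are 4.06 for thermogenic adipocyte, 4.91 for B cell, −0.26 for adipocyte and 0.35 for the 8 genes.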

How the data were processed

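Libraries of polyadenylated RNA (200 ng of input) were read in pairs. Per the labels and the methods of the study, Trim Galore 0.6.4 served for trimming and Rsubread for alignment (GRCm38), DESeq2 1.32.0 for removing genes with few counts, and edgeR 3.34.0 for the analysis of expression. The average log2 CPM of each gene, the value used here, was deposited by the authors in 1 table per tissue. The counting step and annotation are not given in the sources used here. Left aside were 12 per-sample columns, whose names match no sample label, and 12 columns of the authors' own comparison (fold changes, likelihood ratios, p-values, FDR and calls). The comparisons planned between treatments and tissues needed values per sample and were not run, nor was the search for genes of like pattern.

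Genes were matched by symbol, and coordinates come from RefSeq on GRCm38.p6. Exon lengths, the union of exons in GENCODE M21 on GRCm38, were found for 93.2% of the 13197 genes that reached 0 on the log2 CPM scale in both tables, called expressed here. A difference past 1 on the log2 scale was counted as more than 2-fold. The named genes are the 8 genes and members of lists, with Gk2 and Gykl1 added after their values were seen; where the rule for the lists asked for calls or p-values, which these data do not give, genes were chosen by their values. The genes and lists were chosen with earlier results of these data known. Alternatives changed the scaling, the filter and the length. A 2-fold cut, a percentile rank and a median difference were checked on simulated levels, apart from the code used for the results. The other steps were not tested on simulated levels. Python 3.11.15, numpy 2.4.6, pandas 2.3.3 and matplotlib 3.10.9 were used.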

Additional observations from a re-analysis of the deposited data

How the results depend on the processing

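The alternatives planned at the outset (other normalizations, tests and filters, samples left out) need values per sample, whose columns could not be tied to samples, and were not run. No paired analysis was possible because the columns carry no replicate number and the values came from no test. The alternatives below were chosen after seeing the data. Scaled to the adipocyte markers, which raises the difference of every gene alike, the median difference of the 8 genes was 0.61. With it 6.65% of genes were more than 2-fold higher in the iWAT table and 1.67% more than 2-fold lower. With that scaling 3 of the 8 genes, Pck1 now included, passed 2-fold on the higher side. Centring on the median of all genes moved each difference by 0.01, and neither an average log2 CPM of at least 1 nor no filter moved a count of members. With the longest transcript as the length, no share of the 8 genes in their families moved by 5 percentage points, but the span over the 8 genes in iWAT was 130-fold in place of 204-fold, and Aqp7 over Gk was 14.2-fold in iWAT and 29.8-fold in eWAT. No error or depth per sample stands behind any difference given here, so small ones such as those of Lpin1, Gpam, Dgat1 and Agpat2 carry no call.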
